A study of Mus musculus with 9 samples.

Results

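The nuclear genes of oxidative phosphorylation were followed here through 37 members, chosen by symbol: 15 subunits of complex I, 4 of complex II, 5 of complex III, 6 of complex IV and 7 of complex V, the ATP synthase. All 37 were among the 55453 genes listed in the deposited count table and among the 19412 genes that passed the filter on low counts, and the lowest count of any member in any library was 2464. Polyadenylated RNA had been sequenced from whole, flash frozen aortae of 9 C57BL/6J mice, 3 for each of 3 genotypes. In the Itga8-Cre line (Itga8-CreERT2) a Cre recombinase inducible by tamoxifen is driven from Itga8, which encodes an integrin subunit of smooth muscle. In the Myh11-Cre line (Myh11-CreERT2) the inducible Cre is driven from Myh11, which encodes the myosin heavy chain of smooth muscle, and Wild Type mice served as controls. The labels name no floxed allele, sex, age, tamoxifen dose, transgene copy number or batch for any group, and both driver genes are active in smooth muscle, so a Cre would not be made in every cell of the vessel. The series set the Itga8-CreERT2 mouse beside the Myh11-CreERT2 mouse.

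Oxidative phosphorylation takes electrons from NADH at complex I and from succinate at complex II, passes them through complex III and cytochrome c to oxygen at complex IV, and uses the proton gradient built on the way to make ATP at complex V. Most subunits are encoded in the nucleus, translated in the cytosol and imported into mitochondria, while a few core subunits of every complex except complex II are encoded in mitochondrial DNA. Brown fat, heart and skeletal muscle are rich in these transcripts, whereas arterial smooth muscle has fewer mitochondria, and in brown fat Ucp1 lets the proton gradient run down as heat.

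Libraries of the same genotype stood apart in markers of other tissues, whose part in the results on the members was not tested except where a value is given. Total counts ran from 31419238 to 42497543 a library, and levels below are in CPM, counts set to a common total after TMM scaling, with the values of libraries 1, 2 and 3 of a genotype always in that order. Smooth muscle myosin Myh11 stood between 460.5 and 1371 CPM in the 9 libraries, so the labelled tissue was present in all. The summed level of the 10 brown fat markers (9 passed the filter, and Zic1 stood at 0 to 0.194 CPM) ran from 2220.0 to 7235 CPM in Itga8-Cre, from 3172 to 6842 CPM in Myh11-Cre and from 2850.5 to 3751 CPM in Wild Type. The summed level of the 12 skeletal muscle markers, all of which passed the filter, ran from 170.2 to 7662 CPM in Itga8-Cre, from 94.6 to 17518 CPM in Myh11-Cre and from 934 to 1993 CPM in Wild Type. That of the 8 cardiac markers ran from 2294 to 9368, from 3369.5 to 10082 and from 1775 to 5038 CPM in the same genotypes. Between Myh11-Cre and Wild Type all 12 skeletal muscle markers (median log2 difference 2.60), all 8 cardiac markers (1.25) and all 5 mesothelium markers (1.25) were above 0, and 3 of 4 nerve markers (-1.02) and 7 of 9 smooth muscle markers (-0.31) were below 0. Between Itga8-Cre and Wild Type the medians of these lists were 1.23, 0.67, 0.82, -0.33 and -0.63, and 5 of the 9 smooth muscle markers separated lower, beside 5.37% of all genes. Also there, all 6 macrophage markers (median 0.59) and all 7 lymphocyte markers (0.84) were above 0, and 8 of 9 fat cell markers (-0.28) were below 0. Of the macrophage markers 4 separated higher, beside 5.76% of all genes. In Myh11-Cre against Wild Type the medians of these further lists were 0.45, 0.16 and 0.06. By edgeR 0 of these markers passed in either comparison, and for Myh11-Cre against Wild Type DESeq2 called 3 of the mesothelium list, 2 of the nerve list and 1 of the smooth muscle list, beside 4.44% of its genes in either direction. The smooth muscle list held both directions, from -0.51 to 1.76 in that comparison, with Des the highest. Des stood at 124, 605 and 729 CPM in Myh11-Cre and at 99.6, 185 and 146 CPM in Wild Type. These are bulk samples, so fewer cells of a type and less RNA per cell cannot be told apart.

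The 37 members together took between 1.38% of all counts, in Itga8-Cre 2, and 2.04%, in Itga8-Cre 1. Their summed level was 22504, 11958 and 16302 CPM in Itga8-Cre, at 22874, 17139 and 20383 CPM in Myh11-Cre and at 16080.5, 14877 and 15907 CPM in Wild Type. Itga8-Cre held both the lowest and the second highest of the 9 libraries, while the 3 Wild Type libraries lay close together. The members kept nearly the same order of libraries: all 37 were highest in Itga8-Cre 1, intermediate in Itga8-Cre 3 and lowest in Itga8-Cre 2 within that genotype. In Myh11-Cre the order was library 1, then 3, then 2 for 29 members, library 3, then 1, then 2 for 7, and library 3, then 2, then 1 for Atp5j. In Wild Type, 22 members followed the order 1, 3, 2. Itga8-Cre 2 was the lowest of all 9 libraries for 36 members, Atp5j being the exception with its lowest value in Wild Type 1. The highest of the 9 was Itga8-Cre 1 for 17 members, Myh11-Cre 1 for 15, and Myh11-Cre 3 for 5, which were Ndufa5, Atp5c1, Atp5h, Atp5j and Atp5o.

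**Figure D1:**
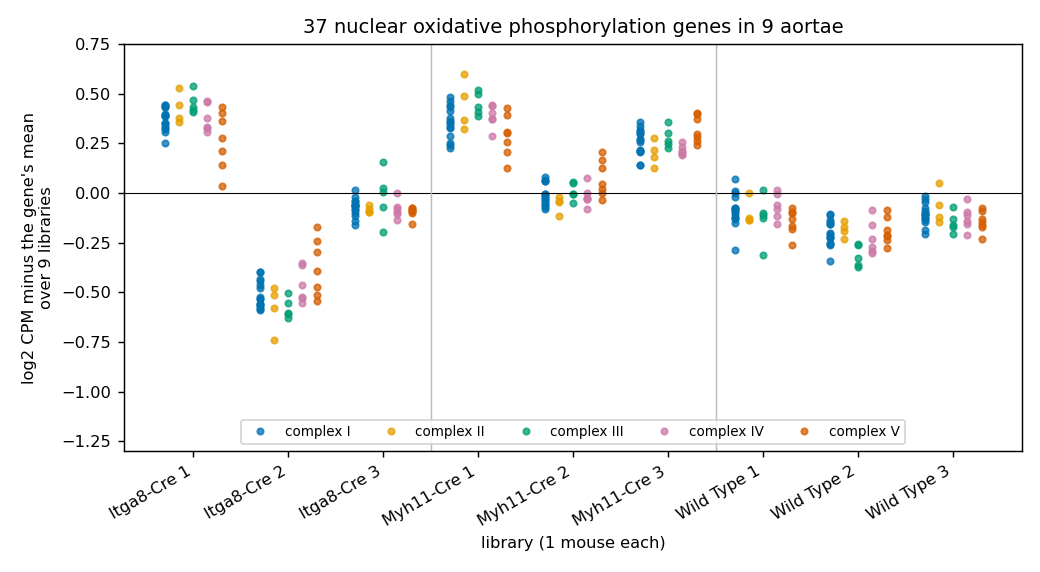
Each point is 1 of the 37 members in 1 library, as log2 CPM minus that gene's mean over the 9 libraries, coloured by complex. The points of a library lie together: the median member is at 0.39 in Itga8-Cre 1, at -0.52 in Itga8-Cre 2 and at 0.37 in Myh11-Cre 1, and the complex V points spread most in the first 2 of these.

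The members also differed between mice of 1 genotype. Itga8-Cre 1 exceeded Itga8-Cre 2 by a median of 1.87-fold over the members, from 1.15-fold for Atp5j to 2.27-fold for Sdha, and Ucp1 by 3.68-fold. Myh11-Cre 1 exceeded Myh11-Cre 2 by a median of 1.31-fold, and Ucp1 by 2.26-fold. Wild Type 1 exceeded Wild Type 2 by a median of 1.08-fold, and Ucp1 by 1.36-fold. The coefficient of variation over the 9 libraries ran from 14.0% for Atp5j to 27.1% for Uqcrq, with a median of 20.3%, beside a median of 16.1% over the 1569 tested genes with a mean level at least that of the lowest member. After each library was set to its median member, 32 of the 37 varied less than 1.3-fold between their highest and lowest library. Atp5a1, the alpha subunit of the ATP synthase, varied least, by 1.04-fold. The other 5 were Atp5h at 1.32-fold, Sdha and Uqcrq at 1.36-fold, Atp5c1 at 1.44-fold and Atp5j at 1.64-fold.

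Levels between genes were compared per kilobase of exon, using the union of the exons of protein-coding transcripts in GENCODE M21 on GRCm38. Atp5b, the catalytic beta subunit of the ATP synthase, had the highest mean, at 1629.6 CPM per kilobase. Cox4i1 followed at 978, Atp5a1 at 796 and Cox6b1 at 731 CPM per kilobase. The lowest were Sdhc at 76.9, Atp5j at 85.8 and Ndufb5 at 102 CPM per kilobase, and the median member stood at 212.8. Sdhc and Atp5j did not separate beyond their spread, since Sdhc reached 97.1 in its highest library and Atp5j was at 71.01 in its lowest. A union of exons includes those of minor transcripts, so these values are lower for genes with many annotated transcripts. Atp5o is left out of this order because GENCODE M21 gives that symbol to more than 1 gene.

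Since the members moved together between libraries, their promoters were searched for the letters of 4 factors known to act on respiratory chain genes: nuclear respiratory factor 1, GA-binding protein, YY1 and the oestrogen-related receptors. RefSeq windows of 300 bases on GRCm38.p6, from 250 before to 50 after the start, were at hand for 28 of the 37 members, not for Ndufa2, Ndufs1, Sdhc, Uqcrc2, Uqcrb, Uqcrq, Cox4i1, Cox6c and Atp5a1. Both strands were searched, and in the members no matches of different motifs overlapped. The NRF1 letters GCGCANGCG were in 9 of the 28 members (32.1%), beside 7.03% of all 27025 genes with a window and 13.0% of those tested here. Atp5o is 1 of the 9, and because 2 genes bear its symbol its window may not belong to the gene that was counted. The GABP letters CCGGAAG were in 7 members (25%), beside 9.93% and 17.1%. The YY1 letters AAGATGGCG were in 3 (10.7%), beside 1.64% and 2.90%, and the receptor letters TCAAGGTCA in 1, Sdhd (3.57%), beside 0.466% and 0.333%. At least 1 of the 4 was in 16 of the 28 members (57.14%), in 16.91% of all genes and in 29.07% of the tested ones. The Atp5j window that holds GABP and YY1 letters (chr16:84834927-84835226) also lies within Gabpa, a gene on the plus strand (chr16:84834925-84863779). These letters are therefore not particular to Atp5j. A match describes letters in a window and shows neither binding nor a cause, and a gene without a match may hold other forms of the motif or a motif outside the window.

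Matches are printed with their flanks, 5′ to 3′ on the strand of the gene, with the motif in capitals, so that the shared letters can be compared. Not shown are those of Atp5o, Ndufs3, Ndufa9 and Ndufs7, and another NRF1 match of Uqcrc1, on the other strand and 1 base on from the last one printed for that gene. Each NRF1 line has the same core on one strand or the other.
Sdha, NRF1, chr13:74350320-74350348: cgtttacaggGCGCAGGCGcaccaccact
Sdha, NRF1, chr13:74350277-74350305: ggggcgtgttGCGCAGGCGcagaatcttc
Sdha, NRF1, chr13:74350232-74350260: gcgactcggtGCGCAAGCGcagtctgtcg
Sdhd, NRF1, chr9:50603910-50603938: tcgctggggtGCGCACGCGcggtggcagc
Ndufa5, NRF1, chr6:24527698-24527726: tgtgtgagctGCGCAGGCGcaaatctacc
Ndufa8, NRF1, chr2:36049349-36049377: tagagcagtgCGCTTGCGCgtcgctggag
Ndufa8, NRF1, chr2:36049329-36049357: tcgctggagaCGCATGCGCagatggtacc
Ndufb10, NRF1, chr17:24724407-24724435: tcacctttctGCGCAGGCGtagaggtccc
Uqcrc1, NRF1, chr9:108936644-108936672: ttccttacagCGCTTGCGCctcagactcc
Uqcrc1, NRF1, chr9:108936668-108936696: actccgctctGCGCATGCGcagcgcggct
Atp5c1, NRF1, chr2:10080431-10080459: ctgagctcccGCGCACGCGcactgagtcc
Atp5h, NRF1, chr11:115420042-115420070: gaccccgacgGCGCAGGCGccgcgcccgc
Atp5h, GABP, chr11:115419940-115419968: caaggagagaaCTTCCGGcaactctcttc
Ndufs8, GABP, chr19:3912742-3912770: ttaggctccgcCTTCCGGttgaaccgcat
Sdhd, GABP, chr9:50603878-50603906: ccgtctcctgcCTTCCGGttcacgcttca
Sdhd, ERR, chr9:50603800-50603823: ggttgtagagTGACCTTGAgccct
Sdhb, GABP, chr4:140961266-140961294: gctcggagaaaCCGGAAGcggccttccac
Cox6b1, GABP, chr7:30626125-30626153: tcctctcgcagCTTCCGGccagtcggaat
Atp5j, GABP, chr16:84835020-84835048: agctgagggacCCGGAAGcacttaccctc
Atp5j, YY1, chr16:84835046-84835074: aagtgtaggaAAGATGGCGgagtcttagc
Sdha, on the minus strand, held 3 separate NRF1 matches whose first bases lay 98, 55 and 10 bases before its start. Sdhd held matches of 3 of the 4 motifs, with the receptor letters 36 bases after the start. The 120 bases before its start, chr9:50603850-50603969 on the minus strand, are shown as the example with NRF1 and GABP letters in capitals, in that order.
Sdhd: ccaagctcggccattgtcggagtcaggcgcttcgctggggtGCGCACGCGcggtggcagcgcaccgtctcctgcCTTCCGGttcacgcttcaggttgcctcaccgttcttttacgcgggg

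In Myh11-Cre aortae all 37 members had a mean above that of Wild Type, by a median log2 difference of 0.36 (range 0.26 to 0.55), and none passed the test. In Itga8-Cre aortae the median log2 difference from Wild Type was 0.11, with Itga8-Cre 1 above every Wild Type library for all 37 members and Itga8-Cre 2 below every one for 36. Itga8-Cre lay below Myh11-Cre for all 37 members, by a median of -0.25. Over all 19412 tested genes the corresponding medians were 0.01, 0.04 and 0.01, and 50.9%, 55.9% and 51.3% of genes lay above 0. The first 2 comparisons share the Wild Type libraries and each pair of comparisons shares a group, so they are not independent of each other. By edgeR's quasi-likelihood test with Benjamini-Hochberg adjustment over all genes, 0 members had an adjusted p under 0.05 in any comparison, and neither had any of the 19412 genes (0.0% called in each).

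For Myh11-Cre against Wild Type, all 3 Myh11-Cre libraries lay above all 3 Wild Type libraries for 26 of the 37 members, whereas 11.3% of all tested genes separated in that direction. The 26 comprised 9 of 15 in complex I, 2 of 4 in complex II, all 5 in complex III, 3 of 6 in complex IV and all 7 in complex V. With an unadjusted p under 0.05 in edgeR stood 4 members, Ndufs8, Atp5c1, Atp5j and Atp5o, beside 6.93% of all genes higher by that measure, and their adjusted p ran from 0.218 to 0.291. DESeq2 called 1 member, Atp5c1 (adjusted p = 0.0203), beside 1.35% of its 18660 genes called higher, and limma voom called 0. The count of 4 was 2 without Myh11-Cre 1, without Myh11-Cre 3 or without any of the Wild Type libraries, 3 without Itga8-Cre 3, 6 without Myh11-Cre 2, 15 without Itga8-Cre 1 and 22 without Itga8-Cre 2, since the Itga8-Cre libraries share in the estimate of the spread. The share of all genes higher by that measure was 8.87% and 9.25% in the last 2 of these and ran from 3.19% to 10.1% over the 9 libraries left out. The count was 26 when only the 6 libraries compared were fitted, beside 10.3% of genes. Without the brown fat-richest libraries Itga8-Cre 1 and Myh11-Cre 1, a choice made after the data were seen, the median was 0.27 and 26 members separated beside 22.0% of genes. Without the skeletal muscle-richest libraries, number 3 of Itga8-Cre and numbers 2 and 3 of Myh11-Cre, also left out after the data were seen, Myh11-Cre 1 alone gave a median of 0.51. With the brown fat marker score as a covariate the median was 0.20 and all 37 remained above 0, and 23 had an unadjusted p under 0.05, beside 10.1% of genes higher, with 0 called.

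For Itga8-Cre against Wild Type, 36 of 37 members were above 0 and 0 separated in either direction, beside 5.76% of genes that separated higher and 5.37% that separated lower. No member had an unadjusted p under 0.05, beside 3.97% of genes higher, DESeq2 called 0 beside 0.166% of its genes, and the smallest adjusted p by edgeR was 0.73. The direction rested on Itga8-Cre 1: without it the median was -0.13 and 4 of 37 members were above 0, and without Itga8-Cre 2 it was 0.27. For Itga8-Cre against Myh11-Cre, Atp5c1 and Atp5j separated lower, beside 3.07% of genes. The same 2 had an unadjusted p under 0.05 in edgeR, beside 1.83% of genes lower, and DESeq2 called 0 members, beside 0.109% of its genes. That count was 32 without Itga8-Cre 1, beside 7.05% of genes, 0 without Itga8-Cre 2, Itga8-Cre 3 or Myh11-Cre 3, and 1 without any other single library. The median moved from -0.50 without Itga8-Cre 1 to -0.06 without Itga8-Cre 2.

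**Figure D2:**
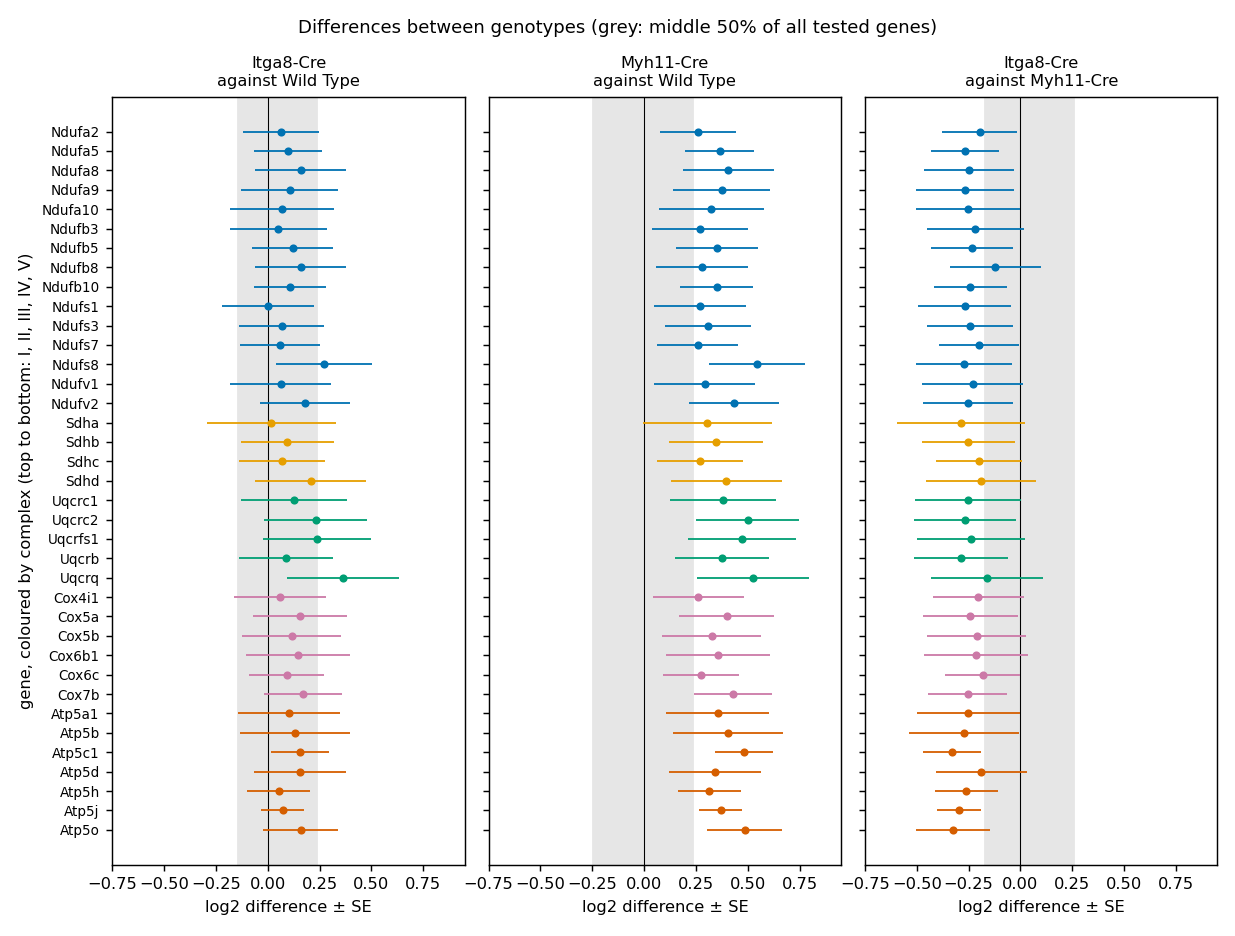
Points are edgeR log2 differences of the 37 members with their standard errors in the 3 comparisons, coloured by complex, and the grey band holds the middle 50% of all tested genes. For Myh11-Cre against Wild Type every point lies to the right of 0, from 0.26 to 0.55, and for the other comparisons the medians are 0.11 and -0.25.

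Complex I, the NADH dehydrogenase that feeds most electrons into the chain, had a median log2 difference of 0.32 between Myh11-Cre and Wild Type over its 15 members. Ndufs1, its largest subunit and the holder of several iron-sulphur clusters (chromosome 1, 63143596 to 63176833, minus strand), stood at 645, 355 and 457 CPM in Itga8-Cre, at 664, 504 and 589 CPM in Myh11-Cre and at 511, 461 and 485 CPM in Wild Type. Myh11-Cre overlapped Wild Type through Myh11-Cre 2, and Itga8-Cre spanned the whole of the Wild Type range on both sides. Its log2 difference was 0.27 (SE 0.22, edgeR adjusted p = 0.554) for Myh11-Cre and -0.00070 for Itga8-Cre against Wild Type, the only member at or below 0 there. Ndufs8, which carries iron-sulphur clusters on the path to ubiquinone (chromosome 19, 3908863 to 3912774, minus strand), stood at 212, 106 and 157 CPM in Itga8-Cre, at 215, 163 and 197 CPM in Myh11-Cre and at 128, 123 and 143 CPM in Wild Type. All Myh11-Cre libraries were above all Wild Type libraries, and Itga8-Cre 2 was the lowest of the 9. The difference of 0.55 (SE 0.23) was the largest of the 37 for Myh11-Cre against Wild Type and did not pass (edgeR adjusted p = 0.291). For Itga8-Cre against Wild Type it was 0.27 (SE 0.23, edgeR adjusted p = 0.76).

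Ndufv2, an iron-sulphur protein beside the NADH-binding site, had means of 262 ± 81.4, 313 ± 32.5 and 231 ± 13.8 CPM (SD, n = 3) in Itga8-Cre, Myh11-Cre and Wild Type. Its Myh11-Cre libraries separated from Wild Type, with a log2 difference of 0.43 (SE 0.22). Ndufa5, an accessory subunit of the matrix arm, stood at 126, 79.97 and 101 CPM in Itga8-Cre, at 129, 105 and 135 CPM in Myh11-Cre and at 96.2, 94.6 and 95.95 CPM in Wild Type. It was 1 of the 5 members highest in Myh11-Cre 3, and its Wild Type libraries lay close together. The difference from Wild Type was 0.36 (SE 0.17) in Myh11-Cre. Ndufb10, an accessory subunit of the membrane arm, had the narrowest range of libraries in complex I by fold, from 125 to 207 CPM, and also separated, by 0.35 (SE 0.18). Ndufa2, an accessory subunit near the NADH-oxidising end, had the lowest coefficient of variation in the complex, 16.5%, and overlapped Wild Type with a difference of 0.26 (SE 0.18). The remaining 9 members of complex I (Ndufa8, Ndufa9, Ndufa10, Ndufb3, Ndufb5, Ndufb8, Ndufs3, Ndufs7 and Ndufv1) ranged from 0.26 for Ndufs7 to 0.41 for Ndufa8, and 5 of them separated.

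Complex II, succinate dehydrogenase, is also an enzyme of the citric acid cycle and is encoded by nuclear genes alone. Sdha, the flavoprotein that oxidises succinate and a member with 3 separate NRF1 matches (chromosome 13, 74322254 to 74350280, minus strand), stood at 1902, 838 and 1307 CPM in Itga8-Cre, at 2121, 1292 and 1523 CPM in Myh11-Cre and at 1282, 1268 and 1449 CPM in Wild Type. The lowest and highest of these differed by 2.53-fold, the widest range of any member, and both extremes lay in Cre libraries. Myh11-Cre 2 and Wild Type 1 were close to each other, and the difference of 0.30 (SE 0.31) between Myh11-Cre and Wild Type had the largest adjusted p of the members by edgeR, 0.637. Sdhb, the iron-sulphur subunit, had means of 434 ± 134, 517 ± 70.3 and 406 ± 18.9 CPM (SD, n = 3) in Itga8-Cre, Myh11-Cre and Wild Type. It separated in Myh11-Cre with a difference of 0.35 (SE 0.22). Sdhc and Sdhd anchor the enzyme in the membrane. Sdhd separated with 0.40 (SE 0.27), and Sdhc overlapped with 0.27 (SE 0.21).

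Complex III, which hands electrons from ubiquinol to cytochrome c, had the highest median of the complexes in Myh11-Cre, 0.47, and all 5 members separated from Wild Type. Uqcrc1, a core protein (chromosome 9, 108936633 to 108949623, plus strand), stood at 1045, 509 and 737 CPM in Itga8-Cre, at 1010.2, 769 and 953 CPM in Myh11-Cre and at 716, 646 and 735 CPM in Wild Type. The lowest Myh11-Cre value was above the highest Wild Type value by less than the spread within either group, and the difference was 0.38 (SE 0.26, edgeR adjusted p = 0.466). Uqcrq, a small subunit that helps to hold the ubiquinone site (chromosome 11, 53427922 to 53430831, minus strand), stood at 323, 144 and 248 CPM in Itga8-Cre, at 300.5, 215 and 285 CPM in Myh11-Cre and at 179, 173 and 203 CPM in Wild Type. It varied most of the 37, with a coefficient of variation of 27.1%, and 2 of the 3 Itga8-Cre libraries were also above Wild Type. Its difference was 0.53 (SE 0.27) in Myh11-Cre and 0.36 (SE 0.27) in Itga8-Cre, the largest of the members in that comparison. Uqcrc2, the other core protein, differed by 0.50 (SE 0.25) between Myh11-Cre and Wild Type. Uqcrb, the ubiquinone-binding small subunit, differed by 0.37 (SE 0.23) there and by -0.29 (SE 0.23) between Itga8-Cre and Myh11-Cre. Uqcrfs1, the Rieske iron-sulphur protein, ran from 264 to 569 CPM.

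Complex IV, cytochrome c oxidase, had a median of 0.34, and Cox5a, Cox6c and Cox7b separated. Cox4i1, the largest of its nuclear subunits and the form used in most tissues (chromosome 8, 120668222 to 120674207, plus strand), stood at 927, 534 and 703 CPM in Itga8-Cre, at 953, 697 and 841 CPM in Myh11-Cre and at 662, 694 and 722 CPM in Wild Type. Wild Type 3 was above Myh11-Cre 2, so the groups overlapped, with a difference of 0.26 (SE 0.22). Cox7b, a small membrane subunit encoded on the X chromosome (chromosome X, 106015700 to 106022450, plus strand), stood at 429, 267 and 317 CPM in Itga8-Cre, at 442, 359 and 407 CPM in Myh11-Cre and at 327, 278 and 294 CPM in Wild Type. Its lowest Myh11-Cre library was above its highest Wild Type library, and its difference of 0.43 (SE 0.19, edgeR adjusted p = 0.306) was the largest in the complex. Cox5a differed by 0.40 (SE 0.23), and Cox6c, a small membrane subunit, by 0.27 (SE 0.18). Cox6b1, on the side of cytochrome c, overlapped Wild Type with 0.36 (SE 0.25). Cox5b overlapped as well, and RefSeq names a pseudogene, Cox5b-ps, that could share reads with it.

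Complex V held 4 of the 5 members that were highest in Myh11-Cre 3, the fifth being Ndufa5 of complex I. Atp5b, which carries the catalytic sites (chromosome 10, 128083273 to 128090391, plus strand), stood at 4044, 2094 and 2867 CPM in Itga8-Cre, at 4113, 3101 and 3669 CPM in Myh11-Cre and at 2848, 2631 and 2734 CPM in Wild Type, in the order 1, 3, 2 in every genotype. Myh11-Cre separated from Wild Type with a difference of 0.41 (SE 0.27, edgeR adjusted p = 0.455). Atp5c1, the gamma subunit that turns inside the catalytic head (chromosome 2, 10056016 to 10080510, minus strand), stood at 405, 310.1 and 346 CPM in Itga8-Cre, at 423, 423 and 486 CPM in Myh11-Cre and at 323, 317 and 313 CPM in Wild Type. The Wild Type libraries lay close together, Myh11-Cre was above every other library, and Itga8-Cre overlapped Wild Type. Its difference was 0.48 (SE 0.14, edgeR adjusted p = 0.22, DESeq2 0.0203) for Myh11-Cre against Wild Type. It was 0.15 (SE 0.14) for Itga8-Cre against Wild Type and -0.33 (SE 0.14, edgeR adjusted p = 0.521) for Itga8-Cre against Myh11-Cre. RefSeq names a pseudogene, Atp5c1-ps, so reads of near-identical sequence make its count uncertain.

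Atp5j, coupling factor 6 of the peripheral stalk and the member with GABP and YY1 matches (chromosome 16, 84827866 to 84835625, minus strand), stood at 97.1, 84.4 and 89.2 CPM in Itga8-Cre, at 104, 106 and 123 CPM in Myh11-Cre and at 79.2, 89.4 and 89.1 CPM in Wild Type. All 3 Myh11-Cre libraries exceeded all 6 others, and Itga8-Cre and Wild Type overlapped. Its difference was 0.37 (SE 0.11, edgeR adjusted p = 0.218) against Wild Type and -0.30 (SE 0.11, adjusted p = 0.521) for Itga8-Cre against Myh11-Cre. Atp5o, the stalk protein that confers sensitivity to oligomycin, stood at 401, 251 and 309 CPM in Itga8-Cre, at 408, 360.4 and 436 CPM in Myh11-Cre and at 295, 273 and 294 CPM in Wild Type. It separated from Wild Type in Myh11-Cre, by 0.48 (SE 0.18, edgeR adjusted p = 0.258), and overlapped between the Cre lines, by -0.33 (SE 0.18). Atp5h, also of the stalk, Atp5a1 and Atp5d, the delta subunit, separated too, with means between 0.31 and 0.36 above Wild Type on the log2 scale.

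Ratios to Atp5b within a library, computed for all 6 other members of the complex after their values were seen, do not depend on the scaling of libraries. Atp5j per Atp5b was 2.40%, 4.03% and 3.11% in the Itga8-Cre libraries, 2.52%, 3.43% and 3.34% in Myh11-Cre and 2.78%, 3.40% and 3.26% in the controls. Atp5c1 per Atp5b was 10.01%, 14.8% and 12.1%, then 10.3%, 13.6% and 13.2%, and then 11.4%, 12.1% and 11.4% in the same libraries. Both ratios were lowest in Itga8-Cre 1 and Myh11-Cre 1, the libraries with the most Ucp1, and highest in Itga8-Cre 2, which had the least. The first 2 of these also had the least summed skeletal muscle markers (170.2 and 94.6 CPM) and the most summed fat cell markers (12449 and 14532 CPM). Itga8-Cre 2 had 2229 CPM of the former and the least of the latter, 5867 CPM. The part of any of these tissues in the ratios was not tested. Atp5h per Atp5b ran from 7.82% to 10.6% and Atp5o per Atp5b from 9.90% to 12.01%, both lowest in Itga8-Cre 1 and highest in Itga8-Cre 2. Atp5d per Atp5b ran from 8.75% to 10.1%, and Atp5a1 per Atp5b only from 72.2% to 76.1%.

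**Figure D3:**
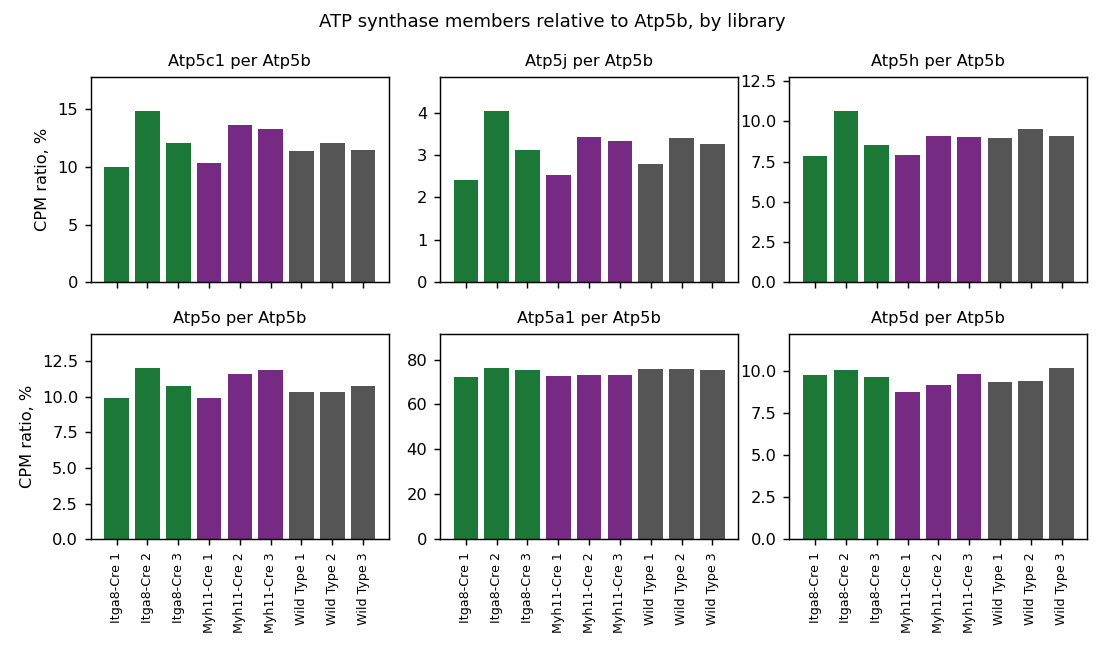
Bars give the CPM of each other complex V member as a percent of Atp5b in each library, with Itga8-Cre in green, Myh11-Cre in purple and Wild Type in grey and each axis starting at 0. Atp5j and Atp5c1 are highest in Itga8-Cre 2, at 4.03% and 14.8%, while Atp5a1 stays between 72.2% and 76.1%.

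A core subunit of each complex was set against Ucp1, the uncoupling protein that defines brown fat, over the 9 libraries on a log2 CPM scale. Ucp1 stood at 4957, 1348 and 2857 CPM in Itga8-Cre, at 4411, 1954 and 3276 CPM in Myh11-Cre and at 1971, 1454 and 1691 CPM in Wild Type. Pearson's r was 0.860 for Ndufs1, 0.846 for Sdha, 0.916 for Uqcrc1, 0.889 for Cox4i1 and 0.923 for Atp5b, with exact permutation p adjusted over 15 relations between 0.0018 and 0.0060. Spearman's rho ran from 0.817 to 0.933, with adjusted exact p between 0.0098 and 0.032. Once the libraries farthest from the median of Ucp1 (number 1 of each Cre line) were left out, r over 7 libraries ran from 0.63 for Sdha to 0.83 for Uqcrc1. As deviations from the genotype means, r ran from 0.953 to 0.980. The 5 subunits share these libraries and each other's order, so they are not 5 separate results. Ucp1 stands here for 1 marker and not for its list: its log2 differences from Wild Type were 0.84 in Itga8-Cre and 0.91 in Myh11-Cre, whereas the 9 tested brown fat markers had medians of -0.14, with 6 below 0, and 0.04, with 4 below 0. Prdm16 and Ebf2, transcription factors of brown fat, were at -0.44 and -0.54 in Itga8-Cre and at -0.31 and -0.22 in Myh11-Cre. Elovl3 had the largest rise of the list, at 1.81 and 2.12 in the same lines, above that of Ucp1. Its mean was 131 CPM for Itga8-Cre, 163 CPM for Myh11-Cre and 37.5 CPM for the controls. Prdm16, Ebf2 and Elovl3 were named after their values were seen, and none of the list passed in either comparison.

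With Acta1, the actin of skeletal muscle, r ran from -0.57 for Sdha to -0.38 for Uqcrc1, and the smallest adjusted exact permutation p was 0.268. Spearman's rho ran from -0.45 to -0.17. Without Itga8-Cre 1 and Myh11-Cre 1, which had 22.1 and 4.57 CPM of Acta1, r ran from 0.34 to 0.65, so its sign rested on those libraries. With Acta2, the actin of smooth muscle, r ran from -0.42 for Cox4i1 to -0.21 for Ndufs1 and rho from -0.52 to -0.13, with a smallest adjusted exact permutation p of 0.388. Without Myh11-Cre 2 and Wild Type 1, the libraries farthest from its median, r ran from -0.44 to -0.26.

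**Figure D4:**
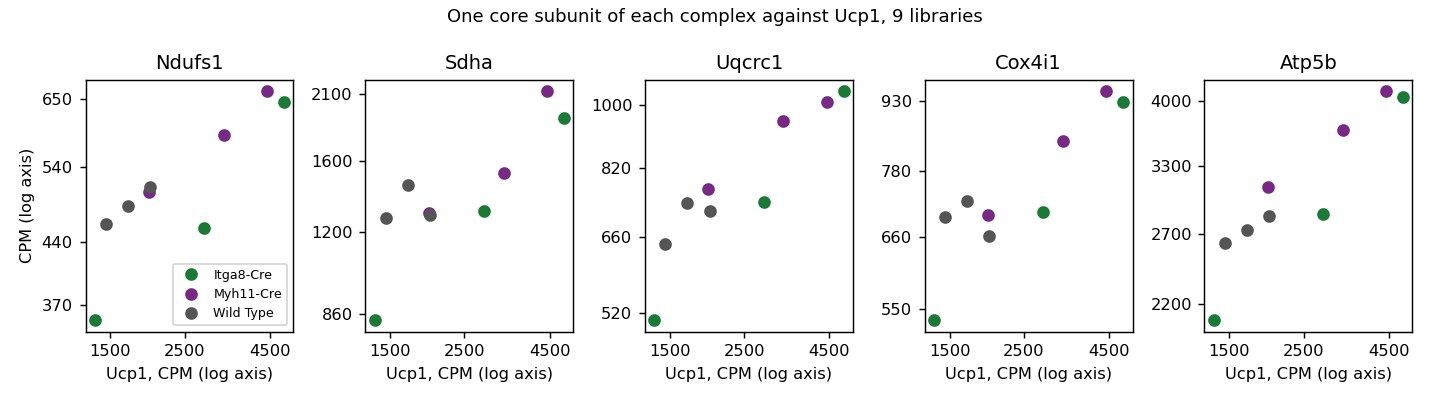
Each panel plots 1 core subunit against Ucp1, both in CPM on log axes, with 1 point a library coloured by genotype. Itga8-Cre 2 lies at the lower left and Itga8-Cre 1 and Myh11-Cre 1 at the upper right of every panel, and Pearson's r is 0.846 to 0.923.

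Some subunits of complex IV exist in forms of particular tissues, and their ratios within a library compare mice without regard to scaling. Cox6a2, the form of heart and skeletal muscle, per Cox6a1, the form of most tissues, was 3.19%, 32.1% and 15.1% in the Itga8-Cre libraries. It was 4.57%, 33.8% and 41.1% in Myh11-Cre and 3.98%, 13.8% and 5.46% in Wild Type. The highest values were in Myh11-Cre 3, Myh11-Cre 2 and Itga8-Cre 2, which were also those with the highest summed cardiac markers, and both Cre groups overlapped Wild Type. By counts Cox6a2 differed by 1.92 (SE 0.72, edgeR adjusted p = 0.262) between Myh11-Cre and Wild Type, and DESeq2 called it (adjusted p = 0.0490). Without the brown fat-richest libraries edgeR called it as well (2.37, adjusted p = 0.0483), and without the skeletal muscle-richest libraries, with Myh11-Cre 1 as the only mouse of its group, the difference was -0.071. Cox7a1, the form of muscle and brown fat, per Cox7a2 was 113.6%, 113.0% and 118.3% in Itga8-Cre, 103.5%, 114.2% and 126.2% in Myh11-Cre, and 79.0%, 109.7% and 107.4% in Wild Type. Itga8-Cre lay above all 3 Wild Type mice there, by 1.18-fold (exact two-sided permutation p = 0.1, adjusted p = 0.9). Cox8b per Cox8a, another form of muscle and brown fat, ran from 121.5% in Wild Type 1 to 182.4% in Myh11-Cre 3. Cox4i2 per Cox4i1 ran from 0.230% to 0.335%, and Ndufa4l2 per Ndufa4 from 0.926% to 1.49%, so the alternative forms known from lung and from low oxygen were rare in every aorta. Of 15 exact tests of 5 ratios, none could go below 0.1 with 3 mice against 3, and no adjusted p was under 0.9.

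**Figure D5:**
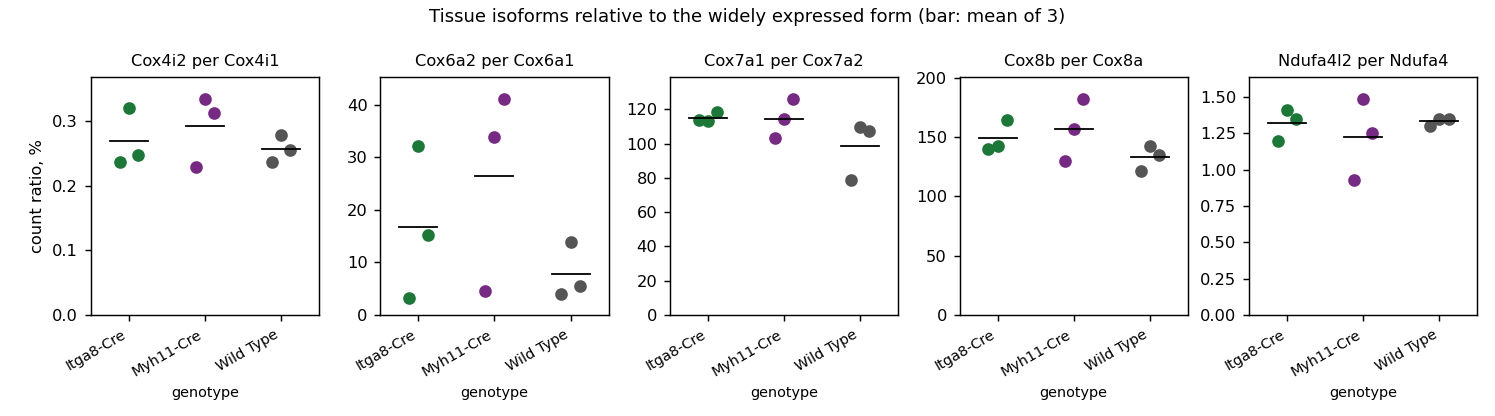
Points give the ratio of counts of each tissue form to its partner in the 3 mice of each genotype, in percent, and the black line is their mean. Cox6a2 per Cox6a1 spans 3.19% to 41.1% and differs as widely within the Cre genotypes as between groups.

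Another 39 nuclear genes of the same complexes, subunits together with the ATP synthase inhibitor Atpif1, were given by a list of their own. Their median log2 difference was 0.37 for Myh11-Cre against Wild Type, with 38 of 39 above 0 and 28 separated higher beside the 11.3% of all genes, 0.17 for Itga8-Cre against Wild Type and -0.22 for Itga8-Cre against Myh11-Cre. By edgeR 0 passed in any comparison. For Myh11-Cre against Wild Type, 10 had an unadjusted p under 0.05 in edgeR higher and 1 lower, beside 6.93% and 9.48% of all genes. DESeq2 called 2, Ndufa11 and Atp5g3, beside 1.35% of its genes called higher. Ndufa11, a membrane subunit of complex I, had 90.7 ± 9.41 CPM in Myh11-Cre against 59.4 ± 4.09 in Wild Type (SD, n = 3), a log2 difference of 0.61 (DESeq2 adjusted p = 0.0409, edgeR 0.218). Atp5g3, which makes the rotor ring of the ATP synthase, had 187 ± 43.6 against 111 ± 6 CPM, a difference of 0.74 (DESeq2 adjusted p = 0.00623, edgeR 0.218). Its Itga8-Cre libraries, at 127, 143 and 145 CPM, also lay above all Wild Type libraries, at 107, 118 and 109 CPM. It was the 1 of the 39 that separated higher in Itga8-Cre, beside 5.76% of all genes. Atp5e and Atp5f1 of the same complex differed by 0.57 and 0.55 between Myh11-Cre and Wild Type. The 1 of the 39 below 0 was Atp5l, named after its values were seen, with 6.11 ± 1.27 against 8.28 ± 1.56 CPM. Its mean of 7.29 CPM over the 9 libraries was the lowest of the list. Per kilobase it stood at 13.4 CPM, beside a median of 190 for the list. Whether its count holds all of its reads was not tested, so its direction is uncertain.

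Cycs, the cytochrome c that carries electrons from complex III to complex IV, stood at 223, 109.7 and 159 CPM in Itga8-Cre, at 226, 156 and 185 CPM in Myh11-Cre and at 149.9, 118 and 134 CPM in Wild Type. It followed the order 1, 3, 2 in each genotype, like most members, and Myh11-Cre separated from Wild Type with a difference of 0.49 (edgeR adjusted p = 0.357). Hccs, the lyase that joins haem to cytochrome c, stood at 40.97, 27.7 and 32.97 CPM in Itga8-Cre, at 89.3, 67.8 and 81.1 CPM in Myh11-Cre and at 31.6, 27.2 and 29.6 CPM in Wild Type. Its Myh11-Cre libraries were more than 1.5 times any other, and its difference of 1.43 (SE 0.16) was called by DESeq2 (adjusted p = 1.72e-09) and not by edgeR (0.218). It was called by edgeR with no filter (adjusted p = 0.0340), with the replicate block (0.0277), with the brown fat covariate (0.000957) and without the brown fat-richest libraries (0.0345). For Itga8-Cre against Myh11-Cre the difference was -1.23, called by DESeq2 (adjusted p = 1.14e-06), not by edgeR (0.521), and by edgeR with the brown fat covariate (0.00319).

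Of 46 assembly factors, which build the complexes and are not part of them, 45 passed the filter. All 45 were above 0 in Myh11-Cre against Wild Type, with a median of 0.26, and 20 separated higher, again beside 11.3% of all genes. By DESeq2 1 was called, Uqcc2 of complex III, beside 1.35% of its genes called higher. Uqcc2 had 34.3 ± 3.57 against 20.9 ± 0.583 CPM (SD, n = 3) and a difference of 0.72 (DESeq2 adjusted p = 0.00368, edgeR 0.218). Its Itga8-Cre libraries, at 32.7, 23.5 and 29.3 CPM, also lay above all Wild Type libraries, at 21.4, 20.9 and 20.2 CPM. It was the 1 of the 45 that separated higher in Itga8-Cre, beside 5.76% of all genes. The median of the 45 was 0.10 in Itga8-Cre against Wild Type. The 13 genes of the citric acid cycle had a median of 0.29 in Myh11-Cre, all above 0 and 3 of them separated beside the same 11.3%, and of 0.05 in Itga8-Cre, against Wild Type, with 0 called by edgeR or DESeq2.

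Among 12 transcriptional regulators of these genes there was no shared direction, with 8 above 0 and 4 below 0 in Myh11-Cre against Wild Type, and none passed. Tfam, which maintains and transcribes mitochondrial DNA, had 38.7 ± 4.78, 40.02 ± 3.28 and 33.1 ± 0.333 CPM (SD, n = 3) in Itga8-Cre, Myh11-Cre and Wild Type, and both Cre groups separated from the controls. Nrf1, whose motif was searched above, had 25.7 ± 2.58, 24.1 ± 1.17 and 21.9 ± 1.27 CPM, with a difference of 0.13 (edgeR adjusted p = 0.521) in Myh11-Cre. It separated likewise but barely, with lowest values of 22.79 and 22.78 CPM in Itga8-Cre and Myh11-Cre and a highest Wild Type value of 22.74. These were the only 2 of the 12 that separated higher in either Cre line, beside 5.76% of all genes in Itga8-Cre and 11.3% in Myh11-Cre. Pprc1, a coactivator of the same programme, was the 1 that separated lower in Myh11-Cre, beside 14.7% of all genes. It stood at 19.2 ± 2.88 against 24.7 ± 2.59 CPM, a difference of -0.36 (edgeR adjusted p = 0.277).

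The subunits encoded in mitochondrial DNA had medians near 0 or below it. Of 13 listed, 7 passed the filter, and their median log2 difference was 0.01 for Myh11-Cre against Wild Type, with 5 of 7 above 0, and -0.13 for Itga8-Cre against Wild Type. None separated or passed the test. The other 6 stood at 0 to 2.33 CPM, except mt-Co3 at 39.98 CPM in Myh11-Cre 3. Beside the levels of the 7, these values are not read as levels of the transcripts. mt-Co1, the catalytic subunit of complex IV, stood at 33492, 22747 and 21949 CPM in Itga8-Cre, at 35739, 23858 and 29759 CPM in Myh11-Cre and at 28109.9, 29690.2 and 31276 CPM in Wild Type. Its Wild Type mean of 29692 ± 1583 CPM was almost that of Myh11-Cre, 29785 ± 5941 (SD, n = 3). mt-Nd1 of complex I had 6579.6 ± 1572 against 5761 ± 295 CPM, a difference of 0.19 (edgeR adjusted p = 0.763). Whether the difference between nuclear and mitochondrial subunits exceeds chance was not tested.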

How the data were processed

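Poly(A) RNA of 9 aortae (3 mice in each of 3 genotypes) had been read as single 75 nt reads from stranded libraries, per the labels. The authors deposited counts per gene. The submitters' processing notes name STAR 2.7.0f, Subread 1.6.4, featureCounts, DESeq2, Salmon 0.13.1, fastp 0.20.0 and the build GRCm38.p6, with no role or order. The annotation release was not given in the sources used here, nor was the strand setting, and genes that overlap others may share reads.

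The counts went through edgeR 4.0.16 in R 4.3.3: filterByExpr by group, TMM scaling, a group-means model over all 9 libraries with robust quasi-likelihood F tests, and Benjamini-Hochberg adjustment over 19412 genes at 0.05. DESeq2 1.42.0 and limma 3.58.1 (voom) were alternatives, beside other scaling, no filter, the compared groups alone, mouse number as a block, marker scores as covariates and libraries left out. Total counts were 31419238 to 42497543 a library, and mt-Rnr2 took 12.34% to 18.18% of them. A gene separated when all 3 libraries of 1 group lay beyond all 3 of the other. Promoter motifs are spelled in at most 9 letters. The NRF1 and YY1 motifs were each shortened by 1 letter after a first search with longer forms, which found 1 NRF1 member fewer (not Ndufb10) and the same 3 YY1 members. Scripts were tested on simulated counts, with changes seeded in Myh11-Cre alone. For Myh11-Cre against Wild Type, edgeR recovered 43% of 2-fold and 90% of 4-fold changes, with 13 false calls. DESeq2 recovered 65% and 97%, with 64 false calls. In Itga8-Cre against Wild Type, where nothing was seeded, DESeq2 made 21 false calls and edgeR 0, a limit on genes called by DESeq2 alone. Differences under 2-fold, like those of the members, were not simulated.

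The members, lists and tests were chosen with earlier results of these data known. Named members were the core subunits, in each complex the 2 members with the smallest p in each comparison and those with the largest and smallest coefficient of variation. In the other lists the candidates were the tissue forms, Cycs, Hccs and the 2 genes with the smallest p in each comparison. Only some of these candidates are named, and none of the citric acid cycle. Other members are named only to complete a count or range, after their values were seen.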

Additional observations from a re-analysis of the deposited data

How the results depend on the processing

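No member passed in any alternative except that DESeq2 called 1 in Myh11-Cre against Wild Type, Atp5c1. Over all genes DESeq2 called 30, 828 and 19 in Itga8-Cre against Wild Type, Myh11-Cre against Wild Type and Itga8-Cre against Myh11-Cre, where edgeR called 0 with 1316, 3187 and 1840 at an unadjusted p under 0.05. For Myh11-Cre against Wild Type edgeR called 265 genes without the brown fat-richest libraries and 1 each with no filter, the block, the brown fat covariate and without the skeletal muscle-richest libraries. Leaving out single libraries gave 0 called members throughout, and 26 to 37 members separated higher in Myh11-Cre against Wild Type, beside 11.3% to 22.0% of all genes. The members' median ran from 0.27 to 0.46 there, from -0.13 to 0.27 for Itga8-Cre against Wild Type and from -0.50 to -0.06 for Itga8-Cre against Myh11-Cre.

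The main fit did not take mouse numbers as pairs, and the labels do not say what the numbers share. Residuals of libraries with the same number correlated over 0.1 in 6 of 9 pairs (range 0 to 0.43). For different numbers the range was -0.40 to 0.22, with only Itga8-Cre 3 and Myh11-Cre 2 over 0.1. For 4 libraries the best match in each other group was the library of the same number. An effect shared by mice of 1 number is therefore not accounted for in the main fit. With mouse number as a replicate block 0 members were called, 15 had an unadjusted p under 0.05 in Myh11-Cre against Wild Type in place of 4, beside 9.82% of all genes in place of 6.93%, and the median was 0.34.

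Some log2 differences that had not passed changed sign, and the cause was not tested. Without the brown fat-richest libraries Ndufs8 was at -0.0127 in Itga8-Cre against Wild Type, and mt-Co1 and mt-Nd1 at -0.15 and -0.0049 in Myh11-Cre against Wild Type. With the brown fat covariate these were -0.13 and -0.0057, and mt-Co1 was at -0.0095 by limma voom and -0.0235 with the replicate block. Without the skeletal muscle-richest libraries Cox6a2 was at -0.071 in Myh11-Cre and Ndufs1 at 0.0352 in Itga8-Cre, against Wild Type. Leaving out single libraries gave -0.26 to 0.17 for Ndufs1 in Itga8-Cre and -0.15 to 0.15 for mt-Co1 in Myh11-Cre against Wild Type, and an r of -0.41 to 0.0861 for Ndufs1 with Acta2. Log2 ratios ran from -0.0792 to 0.14 for Cox4i2 per Cox4i1 in Itga8-Cre against Wild Type. Between Itga8-Cre and Myh11-Cre they ran from -1.69 to 0.25 for Cox6a2 per Cox6a1, -0.0629 to 0.0802 for Cox7a1 per Cox7a2, -0.19 to 0.0564 for Cox8b per Cox8a and -0.055 to 0.29 for Ndufa4l2 per Ndufa4. The last ran from -0.0696 to 0.0505 in Itga8-Cre and from -0.31 to 0.0362 in Myh11-Cre against Wild Type. Every member had at least 2464 counts in each library, and with 3 mice a group the differences seen in Myh11-Cre could not be told from 0 by edgeR.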
